A study of Mus musculus with 56 samples.

Results

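Ctsw, Cd72, Zbtb32 and Pdgfb are 4 genes that were picked for lower levels in mouse CD4 T cells cultured at a high than at a low starting concentration. They are 4 of the 24421 gene symbols in the count table that holds the concentration series. The choice rests on the measured difference between the concentrations at 18, 30, 48 and 72 h, so that difference is given here as a description without a test. The levels in naive, mature and CD62L-sorted cells played no part in the choice and were tested. The steps over time were tested on the mean of both concentrations, which is another contrast but rests on the same libraries. These tests are therefore not free of the choice.

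The study used CD4 T cells from the spleen of C57BL/6 mice. Activation was by beads coated with anti-CD3 and anti-CD28, no cytokine was added, and polyadenylated RNA was sequenced from its 3′ end. Experiment 1 (18 libraries, 6 groups) compares 2 kinds of bead-enriched cells that were never activated, naive cells without CD44 and with CD62L and mature cells with CD44 and without CD62L, to activated CD4 cells sorted at 48 and 72 h with or without CD62L. Experiment 2 (38 libraries, 13 groups) has sorted naive cells of the same markers, CD4 cells from cultures begun with 1000000 cells per ml (high) or 62500 (low) and sorted at 18, 30, 48 and 72 h, and activated CD44 positive cells sorted by CD62L at 48 and 72 h. There are 2 libraries for the low cultures at 72 h and 3 for each of the other 18 groups. The high and low cultures were kept in larger wells than the cells sorted by CD62L, which started at 250000 per ml in both experiments, so these 2 sets are only set side by side. CD62L is the lymph node homing receptor that naive and central memory T cells carry and that many activated T cells shed. All 19 groups come from 1 strain and 1 organ. The labels name no mutation, age or sex. They are silent on whether a group's libraries stem from different animals or wells, and the p-values below therefore speak only for the spread among these libraries.

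The 4 genes act at different places in a lymphocyte. Ctsw encodes cathepsin W, a papain-like cysteine protease found mainly in CD8 T cells and natural killer cells. Cd72 encodes a membrane lectin best known from B cells, where it binds the semaphorin CD100 (gene Sema4d) and recruits the phosphatase SHP-1 (gene Ptpn6) to dampen antigen receptor signals. Zbtb32, also called ROG or PLZP, is a BTB zinc-finger repressor that lymphocytes switch on after activation and that limits proliferation and Gata3-driven cytokine production. Pdgfb encodes the B chain of platelet-derived growth factor, a secreted mitogen for fibroblasts and vessel wall cells.

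Promoter sequences from RefSeq (build GRCm38.p6) could be matched for Cd72 and Zbtb32. They are shown because both genes changed from naive to sorted activated cells of experiment 2, Cd72 downward and Zbtb32 upward. Each run covers the 250 bases before an annotated start, 5′ to 3′ on the gene's own strand, and capitals mark matches to the motifs searched on both strands. The motifs were ACGTG (the core of a hypoxia response element), TGANTCA (AP-1), CCAAT and GAGGAA (the core bound by PU.1 and other Ets factors), and they do not overlap in these windows. The windows are chr4:43454627-43454876 for Cd72 and chr7:30598910-30599159 for the first of the 2 starts of Zbtb32, both on the minus strand.
Cd72: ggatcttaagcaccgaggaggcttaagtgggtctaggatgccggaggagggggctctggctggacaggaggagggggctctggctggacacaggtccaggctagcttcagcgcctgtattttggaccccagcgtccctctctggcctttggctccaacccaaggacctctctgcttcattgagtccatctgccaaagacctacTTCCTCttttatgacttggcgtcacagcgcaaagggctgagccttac
Zbtb32: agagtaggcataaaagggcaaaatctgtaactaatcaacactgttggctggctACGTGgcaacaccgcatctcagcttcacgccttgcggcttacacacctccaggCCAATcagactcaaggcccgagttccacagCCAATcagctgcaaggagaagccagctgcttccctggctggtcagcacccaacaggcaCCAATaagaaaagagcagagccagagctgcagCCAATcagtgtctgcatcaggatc
The Cd72 window holds 1 match to GAGGAA, 47 bases before the start and on the opposite strand, where it reads TTCCTC. The Zbtb32 window holds 4 matches to CCAAT, at 144, 114, 56 and 24 bases before the start, and 1 match to ACGTG at 197. The window before the other start of Zbtb32 (chr7:30592943-30593192) holds none of the 4 motifs. Among 32851 promoters of the same length, 33.8% hold CCAAT, 23.3% GAGGAA, 16.6% ACGTG and 6.75% TGANTCA. These matches describe letters only.

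Libraries held 58750 to 1738555 counts in experiment 1 and 587118 to 3359875 in experiment 2, and all 4 genes passed the filter on low counts in both tables. Levels are CPM, counts scaled to 1000000 per library with TMM factors, each table on its own. They compare libraries of a table and not 1 gene with another. Of 8 CD4 T-cell genes, 7 were in the tables, and all 7 were detected in every group. In bulk RNA, fewer cells that express a gene and less RNA per cell cannot be told apart.

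In experiment 2 Ctsw was highest in naive cells and lower after activation, much further so at the high concentration. The naive libraries read 196.7, 215.2 and 189.1 CPM. At 18 h the low concentration read 51.1, 74 and 42.8 CPM and the high concentration 2.8, 0.7 and 1.8 CPM. All naive libraries lay above all low libraries, and these above all high libraries. At 30 h the low libraries read 37.2, 34.8 and 31.5 CPM against 2.2, 0.8 and 1.1 CPM at the high concentration. At 48 h they read 14.6, 21.3 and 26.9 CPM against 1.7, 1.2 and 0.9 CPM. The low cultures read less at each later time, and the high cultures stayed at 2.8 CPM or less. At 72 h the low libraries read 21.3 and 18.3 CPM and the high libraries 10.2, 7.7 and 11.1 CPM, so the gap was smaller and the groups still did not overlap. The mean at the low concentration was 31.3 times the mean at the high concentration at 18 h, 25.4 times at 30 h, 16.5 times at 48 h and 2.05 times at 72 h. As log2 differences of high minus low these are -4.98 ± 0.426, -4.73 ± 0.394, -4.06 ± 0.446 and -1.03 ± 0.362 (SE). The high cultures held only 6, 8 and 6 Ctsw counts over their 3 libraries at 18, 30 and 48 h, so the ratios at these times are rough.

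Cd72 lay above its naive level at the low concentration and below it at the high one up to 30 h. The naive libraries of experiment 2 read 30.9, 24.9 and 36.1 CPM. At 18 h the low libraries read 112.5, 127.3 and 164.1 CPM and the high libraries 12.1, 14.9 and 6.4 CPM. The 3 groups did not overlap, with naive cells in the middle. At 30 h the low libraries read 72.1, 63 and 63.4 CPM and the high libraries 3.6, 6.4 and 2.6 CPM. At 48 h the low libraries read 25, 59.8 and 51.4 CPM and the high libraries 5.9, 7.3 and 6.4 CPM. Low and high libraries stayed apart up to 48 h. At 72 h the low libraries read 18.8 and 26 CPM and the high libraries 18.8, 25.8 and 26.8 CPM, and the groups overlapped fully. The low mean was 12.1 times the high mean at 18 h, 15.8 times at 30 h, 6.97 times at 48 h and 0.939 times at 72 h.

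In experiment 2 Zbtb32 was not detected in naive cells and was higher than there at both concentrations, so the working description "kept low" fits it only in part. It had 0 counts in the 3 naive libraries, where 3 counts over the group would be 0.627 CPM. At 18 h the high libraries read 9.3, 8.2 and 15.6 CPM and the low libraries 20.4, 19.4 and 10.7 CPM, and the concentrations overlapped. At 30 h the high libraries read 40.3, 51.7 and 40.4 CPM and the low libraries 99.7, 75.7 and 73.5 CPM. At 48 h the high libraries had dropped to 22.7, 15.2 and 13.7 CPM while the low libraries stood at 153.8, 134.1 and 137.4 CPM. The high cultures were thus highest at 30 h and the low cultures at 48 h. At 72 h the high libraries read 2.3, 1.7 and 6.5 CPM and the low libraries 16.9 and 15.3 CPM. The low mean was 1.53 times the high mean at 18 h, 1.88 times at 30 h, 8.25 times at 48 h and 4.58 times at 72 h. Its widest gap was therefore at 48 h and not at the early times. Against the naive floor of 3 counts, the pooled level at 18 h was at least 17.3-fold higher at the high and at least 29-fold higher at the low concentration.

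Pdgfb had 0 counts in the naive libraries of experiment 2 as well, and it appeared at both concentrations by 18 h. At that time the high libraries read 38.2, 26.1 and 24.7 CPM and the low libraries 141.7, 104.3 and 107 CPM. At 30 h the high libraries read 25.2, 21.9 and 22 CPM and the low libraries 200.6, 93.4 and 104.6 CPM. Levels at both concentrations were lower later. At 48 h the high libraries read 15.1, 6.7 and 9.1 CPM and the low libraries 71.9, 57 and 47.8 CPM. At 72 h the high libraries read 8.6, 5.2 and 3.7 CPM and the low libraries 8.1 and 9.4 CPM, which overlapped. The low mean was 3.96 times the high mean at 18 h, 5.76 times at 30 h, 5.72 times at 48 h and 1.51 times at 72 h. The highest library, at 30 h and the low concentration, moves the log2 difference at that time from -2.53 to -2.10 when it is left out. Against the naive floor the level at 18 h was at least 46.9-fold higher at the high and at least 197-fold higher at the low concentration.

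**Figure D1:**
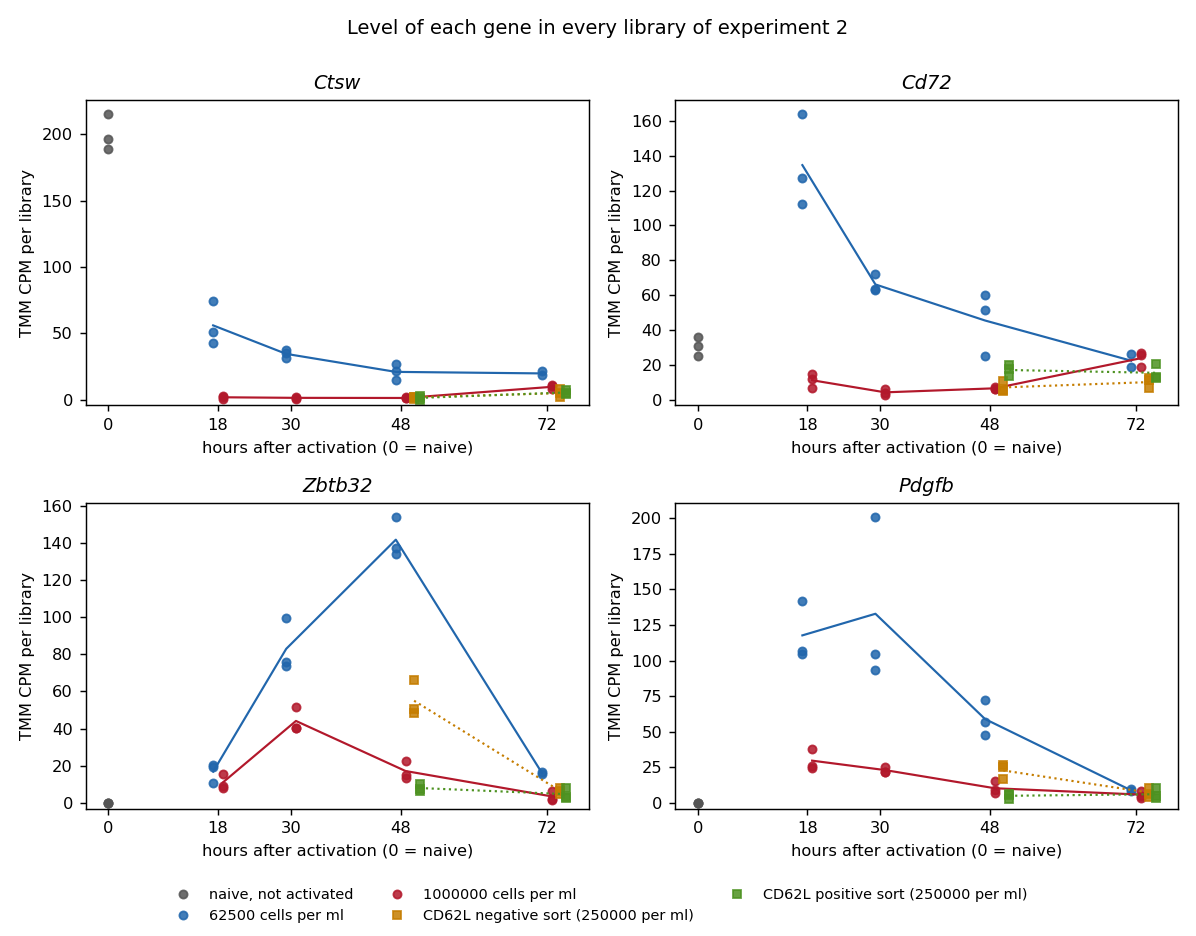
Level of Ctsw, Cd72, Zbtb32 and Pdgfb in every library of experiment 2. The horizontal axis gives hours after activation (0 is naive), the vertical axis TMM-scaled CPM. Each point is 1 library, lines join group means, circles are naive cells and the low and high cultures, and squares are the CD62L sorts. Ctsw and Cd72 are lower in the high than in the low cultures up to 48 h, while Zbtb32 and Pdgfb start at 0 and pass through a peak at both concentrations. At 48 h both CD62L sorts overlap the high cultures for Ctsw, and the negative sort does so for Cd72.

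Set beside all 9239 genes tested, being lower at the high concentration was uncommon early and more common later. With an edgeR adjusted p under 0.05 as the call, 0.725% of genes were lower at 18 h, 3.93% at 30 h, 12% at 48 h and 13.5% at 72 h. Because the genes were chosen on this contrast, nothing is read from their place in it. Of the 9239 genes, 710 were lower at all 4 times and 8 were called lower at all 4. Ranked by the F statistic of the mean difference over the times, among genes with a lower mean, Ctsw stood 2nd, Cd72 3rd, Zbtb32 11th and Pdgfb 12th. Rpph1, an RNA gene, stood 1st with a mean log2 difference of -2.18. Between Cd72 and Zbtb32 stood 7 others, from rank 4 down Irf8 (-1.81), Lta, Lmna, Fcrl1, Tesk1 (-1.20), Gadd45b and Cdkn1a. Cd72 was lower at 3 of the 4 times, and the other 3 genes at all 4.

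**Figure D2:**
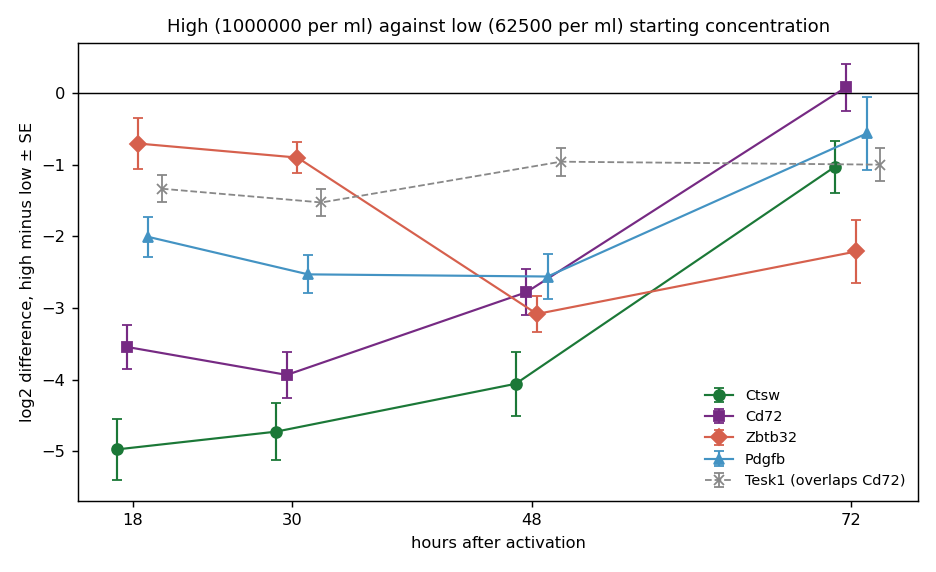
Log2 difference of the high minus the low starting concentration (vertical axis) at 18, 30, 48 and 72 h (horizontal axis), with the SE of the fit as bars. Solid lines are the 4 genes and the dashed line is Tesk1, which overlaps Cd72. The differences of Ctsw, Cd72 and Pdgfb are smaller at 72 h than before, with Ctsw still at -1.03, and Zbtb32 has its lowest point, -3.08, at 48 h.

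Titles in experiment 2 end in a second number that the labels do not explain. It is 1 in all libraries at 18 h and 2 in all libraries at 30 h, so the gaps at these times lie within 1 number. At 72 h the high cultures all have 1 and the low cultures 2, and number and concentration cannot be told apart there. At 48 h the high cultures all have 2 and only 1 low library shares it. Against that library alone the log2 difference at 48 h was -3.58 for Ctsw, -1.98 for Cd72, -3.25 for Zbtb32 and -2.91 for Pdgfb.

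Cd72 shares 352 bases at its 3′ end with Tesk1, a kinase gene on the opposite strand, in the RefSeq annotation. No source used here says whether strand entered the counting. If it did not, reads of the 2 genes could not be told apart in that stretch. The RNA was sequenced from its 3′ end, which is where this stretch lies in Cd72. The share of Cd72 counts that fell there was not tested. Tesk1 was itself lower at the high concentration, with means of 96.6 CPM against 243 CPM at 18 h and 62.8 CPM against 181 CPM at 30 h. Its log2 difference over the 4 times was -1.20 ± 0.101 (SE, edgeR adjusted p = 8.37e-14), beside -2.54 for Cd72. At 72 h Tesk1 was still lower at the high concentration (-0.998 ± 0.226, edgeR adjusted p = 0.000681), where Cd72 levels overlapped. Ctsw shares 10 bases with Fibp, whose difference over the 4 times was -0.13 ± 0.101 (edgeR adjusted p = 0.393). Fibp was nearly absent from the table of experiment 1 (0 to 1.63 CPM), against 36.7 to 92.4 CPM in experiment 2. Zbtb32 shares 680 bases with the predicted gene Gm32082, and Pdgfb 57 bases with the microRNA gene Mir7213.

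Markers of other cell types were low at both concentrations. In the high cultures 3 to 6 of 13 B-cell genes were detected in a group, with a summed level of 11.9 to 88.2 CPM, and in the low cultures 3 to 5 with 8.76 to 62 CPM. This sum overlapped between the concentrations at 18 h, was higher in the high cultures at 30 h (47.1 to 85 against 30.4 to 34.8 CPM) and higher in the low cultures at 72 h (36.9 to 41.9 against 15.5 to 18 CPM). Ms4a1, which encodes CD20, had 0 counts in every library of experiment 2. The 13 genes of CD8 T cells and natural killer cells summed to 21.9 to 110 CPM in the high and 19.5 to 104 CPM in the low cultures, with Ncr1 at 0 throughout. The concentrations overlapped in this sum up to 48 h, when the high cultures read 21.9 to 33.7 CPM, and at 72 h it was higher in the high cultures (36.1 to 39.8 against 19.5 to 21.3 CPM). The myeloid genes also overlapped up to 48 h and were higher in the high cultures at 72 h (3.44 to 13.9 against 2.5 to 2.95 CPM). The part of these sums in the levels of the 4 genes was not tested. The platelet genes Pf4 and Ppbp were at 0 in every library of experiment 2.

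The time course was tested on the mean of both concentrations, and the course at each concentration is given beside it as a description. Every such mean includes the high cultures, for whose low levels the genes were chosen. The sizes and p-values of all steps are therefore not free of that choice. From naive cells to 18 h, 3 of the 4 genes changed, where 65.9% of all genes were called. Ctsw fell by 4.32 ± 0.248 on the log2 scale (SE, edgeR quasi-likelihood test with Benjamini-Hochberg adjustment, adjusted p = 3.97e-21), and Zbtb32 (adjusted p = 1.02e-11) and Pdgfb (adjusted p = 6e-17) rose. The Ctsw mean joins 56 CPM in the low and 1.79 CPM in the high cultures, against 200 CPM in naive cells. For Cd72 this mean joins low cultures above and high cultures below the naive level, and its log2 difference was 0.34 ± 0.257 (edgeR adjusted p = 0.246). From 18 to 30 h, where 24.6% of genes were called, Zbtb32 rose by 2.12 ± 0.198 on the log2 scale (edgeR adjusted p = 2.81e-12). Cd72 fell by 1.20 ± 0.241 in the same step (edgeR adjusted p = 0.000131), but these times carry different second numbers, and with that number as a term the value was -0.60 (adjusted p = 0.267). From 30 to 48 h, where 26.7% were called, this mean passed the test for Pdgfb alone of the 4, which fell by 1.19 ± 0.207 (edgeR adjusted p = 1.34e-05). For Zbtb32 it joins opposite courses without overlap between the times, from a mean of 83 to 142 CPM in the low and from 44.1 to 17.2 CPM in the high cultures, and its log2 difference was -0.32 ± 0.164 (edgeR adjusted p = 0.158). From 48 to 72 h, where 31.9% were called, Ctsw rose by 1.42 ± 0.316 over both concentrations (edgeR adjusted p = 0.00037). Its mean went from 1.27 to 9.67 CPM in the high cultures, while in the low cultures it was 20.9 and 19.8 CPM and the times overlapped. The genes were chosen for low levels in these high cultures, which held 6 Ctsw counts at 48 h, so this rise is not free of that choice. Cd72 went from 6.51 to 23.8 CPM in the high and from 45.4 to 22.4 CPM in the low cultures, and its mean did not pass (0.41 ± 0.238, edgeR adjusted p = 0.191). In that last step Zbtb32 fell by 2.70 ± 0.244 (adjusted p = 1.78e-12) and Pdgfb fell by 1.73 ± 0.292 (edgeR adjusted p = 6.51e-06).

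In experiment 1 the unactivated cells gave another picture. Naive libraries read 46.6, 89.1 and 80.8 CPM for Ctsw and mature libraries 142.3, 136.6 and 97.9 CPM. The groups did not overlap, but the log2 difference of 0.65 ± 0.521 did not pass the test (edgeR adjusted p = 0.439). For Cd72, naive libraries read 155.2, 144.3 and 152.3 CPM and mature libraries 55.8, 89.7 and 65.3 CPM, a fall of the mature cells by 1.10 ± 0.263 on the log2 scale (edgeR adjusted p = 0.0035). Zbtb32 read 0, 59.4 and 43.5 CPM in naive and 36.5, 34.7 and 31 CPM in mature cells, with no call (edgeR adjusted p = 0.48). The naive library at 0 is the shallowest of all, with 58750 counts. Pdgfb read 62.1, 46.7 and 37.3 CPM in naive and 1.9, 18.3 and 22.8 CPM in mature cells, lower in mature cells by a log2 difference of -1.57 ± 0.502 (edgeR adjusted p = 0.0281). That call was lost without mature library 1 or without any 1 of the 3 naive libraries (log2 differences of -1.06 to -1.76). Cd72 and Pdgfb make 2 of 4 genes called, where 16.4% of all 8961 genes were.

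The unactivated cells of experiment 1 also carried markers of other cells. Of 13 B-cell genes, 12 were detected in naive and in mature cells, with summed levels of 5310 to 10300 CPM in naive, 4840 to 5320 CPM in mature and 51.3 to 167 CPM in activated libraries. Ms4a1 read 15.5 to 40.4 CPM in naive and 16.3 to 19.6 CPM in mature cells, and of this list Pax5 alone was at 0 in both. The myeloid genes summed to 667 to 1510 CPM in naive and 364 to 381 CPM in mature cells, with 11 and 10 of 11 detected. The red cell and platelet genes summed to 180 to 450 CPM in naive (7 of 10 detected, Pf4 at 0) and 46.9 to 66.9 CPM in mature cells (8 of 10). The CD8 and natural killer genes summed to 248 to 526 CPM in naive (10 of 13) and 471 to 527 CPM in mature cells (11 of 13). Their part in the levels of Cd72, Pdgfb, Ctsw and Zbtb32 in unactivated cells was not tested. In the sorted naive cells of experiment 2 the B-cell genes summed to 5.31 to 18.5 CPM, with 7 of 13 at 0.

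Activated cells of experiment 1 were set against both unactivated groups. Ctsw read 2.2 to 45.6 CPM in the 12 activated libraries, Cd72 2.2 to 8.9 CPM, Zbtb32 16.5 to 105 CPM and Pdgfb 2.1 to 15.1 CPM. Against naive cells, where 56.1% of genes were called, Cd72 fell by 4.65 ± 0.265 on the log2 scale (edgeR adjusted p = 4.65e-17). Pdgfb fell by 2.69 ± 0.452 (adjusted p = 4.97e-06) and Ctsw fell by 2.22 ± 0.55 (edgeR adjusted p = 0.003). Against mature cells, where 59% were called, Cd72 fell by 3.56 ± 0.241 (edgeR adjusted p = 4.39e-15), Ctsw fell by 2.86 ± 0.357 (adjusted p = 4.27e-06) and Pdgfb fell by 1.11 ± 0.43 (adjusted p = 0.0254). The Pdgfb call against mature cells was lost without mature library 2 (-0.94) or 3 (-0.54). Zbtb32 differed from neither group by this test (edgeR adjusted p = 0.53 and 0.541). Its CD62L positive libraries read 16.5 to 30.1 CPM and its negative libraries 43.8 to 105 CPM. Against mature cells (31 to 36.5 CPM) the tested mean thus joins positive libraries below and negative libraries above every mature library.

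**Figure D3:**
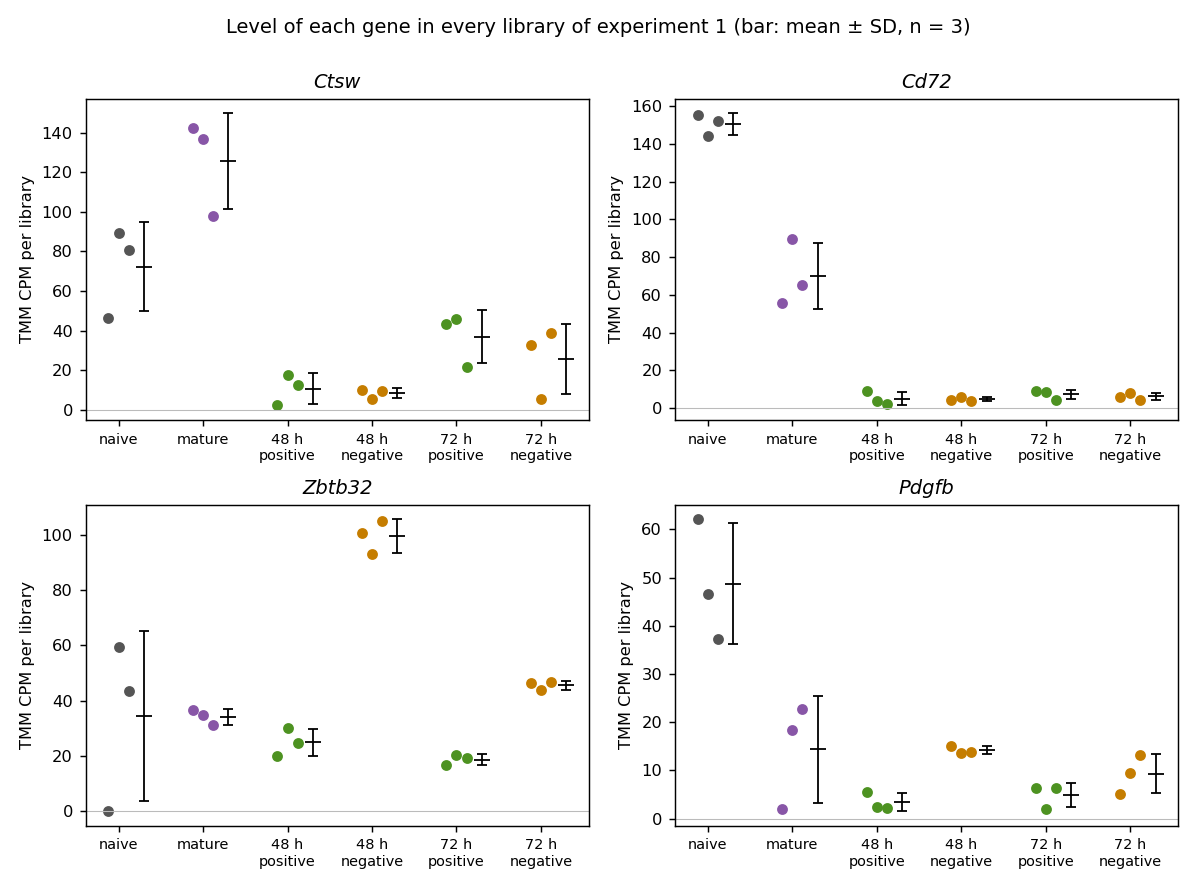
Level of each gene in every library of experiment 1 (vertical axis, TMM-scaled CPM) by group (horizontal axis). Points are libraries and the black bars beside them give the mean ± SD of 3 libraries. Cd72 is high in naive and mature cells only, and Zbtb32 is higher in the CD62L negative than in the positive sorts at 48 and 72 h.

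In experiment 2 the sorted activated cells were set against sorted naive cells, where 63.8% of genes were called. Ctsw read 0 to 8.2 CPM in the 12 sorted libraries and fell by 6.16 ± 0.198 on the log2 scale (edgeR adjusted p = 4.79e-31). Cd72 read 5 to 20.7 CPM and fell by 1.40 ± 0.228 (edgeR adjusted p = 5.47e-07). Zbtb32 and Pdgfb rose from 0, with levels in the 4 sorts at least 7.44-fold to at least 85.7-fold higher than the naive floor for Zbtb32 and at least 8.15-fold to at least 37.8-fold for Pdgfb. Ctsw and Cd72 were below naive cells in every sorted library of both experiments. For Ctsw in experiment 1 the highest sorted library read 45.6 CPM and the lowest naive library 46.6 CPM, from 3 counts. The naive cells of experiment 1 carried the B-cell markers given above, whose part in these levels was not tested. Pdgfb lay below naive cells in every sorted library of experiment 1 and above them in every sorted library of experiment 2.

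The CD62L sorts divided Zbtb32 and Pdgfb at 48 h in both experiments. In experiment 1 Zbtb32 read 20.1, 30.1 and 24.5 CPM in CD62L positive and 100.7, 92.9 and 105 CPM in CD62L negative cells. In experiment 2 it read 6.3, 10 and 7.7 CPM in positive and 50.6, 48.3 and 66.1 CPM in negative cells. The sorts did not overlap in either experiment. The log2 difference, positive minus negative, was -2.001 ± 0.218 in experiment 1 (edgeR adjusted p = 2.82e-08, with 6.51% of genes called) and -2.78 ± 0.283 in experiment 2 (adjusted p = 2.38e-10, with 14.5% called). Pdgfb read 5.6, 2.5 and 2.2 CPM in positive and 15.1, 13.7 and 13.8 CPM in negative cells of experiment 1. In experiment 2 it read 5.8, 2.8 and 6.4 CPM in positive and 16.7, 26.4 and 25.2 CPM in negative cells. Its log2 difference was -1.99 ± 0.536 in experiment 1 (edgeR adjusted p = 0.0166) and -2.17 ± 0.376 in experiment 2 (adjusted p = 3.48e-05). In experiment 1 the Pdgfb call was lost without positive library 2 (-1.82) or 3 (-1.76).

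At 72 h the same division was narrower. In experiment 1 Zbtb32 read 16.5, 20.2 and 19.3 CPM in positive and 46.3, 43.8 and 46.9 CPM in negative cells (log2 difference -1.28 ± 0.259, edgeR adjusted p = 0.000428, with 19.5% of genes called). In experiment 2 it read 8.2, 3.1 and 2.9 CPM in positive and 6.2, 4.9 and 8.1 CPM in negative cells, which overlapped (-0.45 ± 0.45, edgeR adjusted p = 0.783, with 1.53% called). Pdgfb did not pass the test at 72 h in experiment 1 (-0.93 ± 0.569, edgeR adjusted p = 0.266) or experiment 2 (-0.26 ± 0.48, adjusted p = 0.899). The change of the CD62L difference from 48 to 72 h was tested itself. It passed for Zbtb32 in experiment 2 (2.33 ± 0.552, edgeR adjusted p = 0.0131, with 1.3% of genes called) but not in experiment 1 (0.72 ± 0.359, adjusted p = 0.362, with 1.89% called). In experiment 2 it lost its call without the 72 h positive library 1 (1.69, adjusted p = 0.328) and also without 48 h positive library 1 or 72 h negative library 2. For Pdgfb the change was 1.91 ± 0.624 in experiment 2 (edgeR adjusted p = 0.145) and 1.05 ± 0.847 in experiment 1 (adjusted p = 0.626).

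Neither Cd72 nor Ctsw was called lower in CD62L positive cells. At 48 h in experiment 2 Cd72 read 20.1, 13.5 and 17.4 CPM in CD62L positive and 5, 5.5 and 10.6 CPM in negative cells, a higher level in positive cells by 1.31 ± 0.339 on the log2 scale (edgeR adjusted p = 0.00544). That call was lost without negative library 2 (1.12, adjusted p = 0.0576). At 72 h it read 12.3, 20.7 and 13.2 CPM in positive and 11.5, 12.3 and 6.5 CPM in negative cells, with no call (0.59 ± 0.367, edgeR adjusted p = 0.559). In experiment 1 the Cd72 level was 2.2 to 8.9 CPM in both sorts at both times and did not pass the test at either. Ctsw passed in no CD62L comparison. At 48 h it read 2.2, 17.5 and 12.3 CPM in positive and 10.1, 5.3 and 9.2 CPM in negative cells of experiment 1, and 1.2, 2.8 and 0 CPM and 2.2, 0.9 and 2 CPM in experiment 2. The log2 differences were 0.35 ± 0.766 and -0.25 ± 0.691. In experiment 2 the positive sort held 6 and the negative sort 11 Ctsw counts at 48 h, so a difference could be missed.

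Over both times, the CD62L difference was called for Zbtb32 and Pdgfb in experiment 1, where 21.4% of genes were called, and for Cd72 too in experiment 2, where 14.6% were. For Zbtb32 it was -1.64 ± 0.169 in experiment 1 (edgeR adjusted p = 2.64e-09) and -1.62 ± 0.275 in experiment 2 (adjusted p = 2.48e-05). For Pdgfb it was -1.46 ± 0.392 (edgeR adjusted p = 0.0061) and -1.21 ± 0.313 (adjusted p = 0.00495), and for Cd72 in experiment 2 it was 0.95 ± 0.249 (adjusted p = 0.00548). At 48 h in experiment 2 the positive libraries all carry the second number 1 and only 1 negative library does. The test within number 1 therefore assumes that this lone library varies like the libraries of the other groups. Within number 1 the 48 h difference was -2.66 for Zbtb32 (edgeR adjusted p = 2.46e-07), -1.69 for Pdgfb (adjusted p = 0.0329) and 1.77 for Cd72 (adjusted p = 0.0413). With the number as a term the 48 h value for Cd72 was 0.87 (edgeR adjusted p = 0.133). Over both times within number 1, Pdgfb stood at -1.08 (edgeR adjusted p = 0.112).

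**Figure D4:**
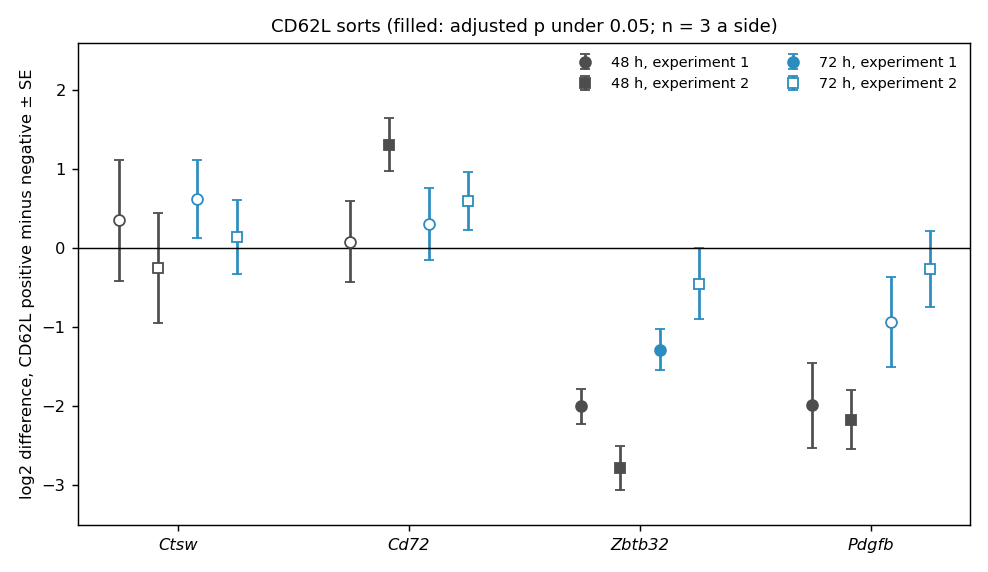
Log2 difference of CD62L positive minus CD62L negative cells (vertical axis) for each gene (horizontal axis), with SE bars, 3 libraries a side. Circles are experiment 1, squares experiment 2, dark symbols 48 h, blue symbols 72 h, and filled symbols have an adjusted p under 0.05. Zbtb32 lies at -2.001 and -2.78 at 48 h and Pdgfb at -1.99 and -2.17, while no symbol of Ctsw is filled.

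In experiment 1 the summed markers of B cells, myeloid cells and CD8 T and natural killer cells overlapped between the sorts at 48 h and were higher in the positive sort at 72 h, and those of red cells and platelets overlapped at both times. The B-cell genes at 72 h summed to 150 to 167 CPM in positive and 51.3 to 77.4 CPM in negative cells (10 of 13 detected in each, Pax5 and Cr2 at 0 in both), the myeloid genes to 45.8 to 65.8 against 6.19 to 21.7 CPM, and the CD8 and natural killer genes to 70.8 to 77.6 against 55.7 to 57.1 CPM. In experiment 2 the B-cell genes were lower in the positive sort, the same side as Zbtb32 and Pdgfb, with 21.9 to 23.5 against 30.5 to 47.4 CPM at 48 h and 8.21 to 10.9 against 11.5 to 18 CPM at 72 h. The CD8 and natural killer genes overlapped at 48 h there and were higher in the positive sort at 72 h (26.5 to 32.9 against 16.4 to 24.3 CPM). The part of these genes in the CD62L differences was not tested.

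From 48 to 72 h the sorted cells moved the same way in both experiments for Ctsw and Zbtb32. Ctsw in experiment 1 went to 43.3, 45.6 and 21.5 CPM in positive and 32.6, 5.5 and 38.9 CPM in negative cells, a rise by 1.75 ± 0.431 on the log2 scale (edgeR adjusted p = 0.003, with 52.5% of genes called). In experiment 2 it went to 4.8, 4.6 and 6.9 CPM in positive and 1.8, 8.2 and 4.9 CPM in negative cells, a rise by 1.85 ± 0.398 (edgeR adjusted p = 0.000179, with 37.8% called). A negative library at 72 h lay within the range of the 48 h libraries in both experiments (5.5 and 1.8 CPM). The 48 h sorts of experiment 2 held only 6 (positive) and 11 (negative) Ctsw counts, so the size of that rise is rough. Zbtb32 fell by 0.76 ± 0.176 in experiment 1 (edgeR adjusted p = 0.000413) and fell by 1.91 ± 0.262 in experiment 2 (adjusted p = 5.68e-08). Pdgfb at 72 h read 6.4, 2.1 and 6.4 CPM in positive and 5.1, 9.6 and 13.3 CPM in negative cells of experiment 1. In experiment 2 it read 10.3, 4.6 and 3.5 CPM in positive and 4.4, 6.6 and 10.5 CPM in negative cells, with a log2 difference between the times of -0.71 ± 0.315 (edgeR adjusted p = 0.0686). Cd72 passed in neither experiment (edgeR adjusted p = 0.229 and 0.593).

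Ordered by group mean over the 13 groups of experiment 2, Ctsw ran from naive cells (200 CPM) through the low cultures at 18, 30, 48 and 72 h to the high cultures, with the lowest mean at 48 h and the high concentration (1.27 CPM). Of its 12 neighbouring pairs of groups 5 were apart and 7 overlapped, among them every pair from rank 7 down. Cd72 ran from the low cultures at 18 h (135 CPM) to the high cultures at 30 h (4.19 CPM), and 10 of 12 neighbours overlapped. Zbtb32 ran from the low cultures at 48 h (142 CPM) to naive cells, with the CD62L negative sort at 48 h at rank 3 (55 CPM) and 8 of 12 neighbours overlapping. Pdgfb ran from the low cultures at 30 h (133 CPM) to naive cells, and 8 of 12 neighbours overlapped. In experiment 1 the order began with mature cells for Ctsw (126 CPM), naive cells for Cd72 (151 CPM) and Pdgfb (48.7 CPM), and CD62L negative cells at 48 h for Zbtb32 (99.6 CPM). There 3 of 5 neighbours overlapped for each gene.

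The group means of the 4 genes were set against each other as a description. Pearson's r of log2 CPM across the 13 groups of experiment 2 was 0.791 for Ctsw with Cd72 and 0.816 for Zbtb32 with Pdgfb. It was 0.393 for Cd72 with Pdgfb and between -0.217 and 0.047 for the other pairs. These groups include the libraries that chose the genes. Across the 6 groups of experiment 1, r was 0.856 for Ctsw with Cd72, 0.759 for Cd72 with Pdgfb and -0.0361 for Zbtb32 with Pdgfb, so the high value of the last pair was seen in experiment 2 alone. Over the groups of experiment 2 and among all tested genes, the ones most like Zbtb32 were Ccr6, the receptor for the chemokine CCL20 (r = 0.962), the retinoid receptor gene Rxra (0.957) and Serpine2, a protease inhibitor (0.95), then Phlda3 (0.949) and Def8 (0.93). For Pdgfb they were the kinase gene Map2k3 (0.963), Rgs16, a brake on G-protein signals (0.96), the branched-chain aminotransferase gene Bcat1 (0.959), the phosphatase gene Dusp4 (0.948) and Pdcd1, which encodes the inhibitory receptor PD-1 (0.941). For Ctsw r was lower, from 0.875 for Lypd6b to 0.852 for Arfgap2, with Zfp628, Elk3 and Zfp335 between. For Cd72 the list was Rnf149 (0.864), Lysmd3 (0.842), Elk3 (0.836), Ctsw and the ion channel gene Piezo1 (0.783).

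Genes from the same pathways were read for the mean of the 4 times, where 20.5% of all genes were called in either direction. Of 16 cathepsins and their inhibitors 11 were tested, and 2 rose at the high concentration and none fell. These were Ctsl (0.68 ± 0.23, edgeR adjusted p = 0.0295) and Ctss (0.30 ± 0.096, adjusted p = 0.0204), both lysosomal proteases and opposite in sign to Ctsw. The list median was 0.10, against 0.01 over all genes. Of 13 genes of CD72 ligand and inhibitory signalling 6 were tested, and 1 rose: Sema4d, the CD72 ligand (0.31 ± 0.111, edgeR adjusted p = 0.0373). The list median was 0.03. Of 19 BTB zinc-finger factors with Gata3 and its cytokines 13 were tested, with 2 higher, 1 lower and a median of 0.09. The repressor Hic1 fell by 1.24 ± 0.148 (edgeR adjusted p = 4.16e-09), and Zbtb20 (0.79 ± 0.239, adjusted p = 0.013) and Zbtb25 (0.46 ± 0.145, adjusted p = 0.0182) rose. Of 15 growth factors and receptors around PDGF 6 were tested, with 2 higher, 1 lower and a median of 0.12. Vegfa (2.34 ± 0.269, edgeR adjusted p = 1.61e-09) and Vegfb (1.00 ± 0.121, adjusted p = 6.12e-09), both angiogenic factors, rose at the high concentration. Furin, a protease that matures PDGF-B and other precursors, fell by 0.85 ± 0.158 (edgeR adjusted p = 5.09e-05).

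The same lists were read for the CD62L difference over both times, where 21.4% of all genes were called in experiment 1 and 14.6% in experiment 2. Hic1 was lower in CD62L positive cells, by a log2 difference of -1.63 ± 0.153 in experiment 1 (edgeR adjusted p = 3.36e-10) and -1.09 ± 0.19 in experiment 2 (adjusted p = 3.52e-05), the same side as Zbtb32. Its list had 5 genes higher and 2 lower of 15 in experiment 1 (median 0.06, all genes 0.00) and 1 higher and 1 lower of 13 in experiment 2 (median 0.18, all genes 0.01). In that list the cytokine gene Il13 was also lower in positive cells of experiment 1 (edgeR adjusted p = 4.79e-09), and Zbtb4 there (0.86 ± 0.194, adjusted p = 0.00117) and Zbtb7b in experiment 2 (0.40 ± 0.142, adjusted p = 0.0473) were higher. Furin and Nrp1 were lower in positive cells of experiment 1 (Furin -0.68 ± 0.161, edgeR adjusted p = 0.00197; Nrp1 -0.62 ± 0.19, adjusted p = 0.0161) and Tgfb1 in those of experiment 2 (-0.66 ± 0.181, adjusted p = 0.00851). The growth factor list had 0 higher and 2 lower of 9 in experiment 1 (median -0.19), and 0 higher and 1 lower of 6 in experiment 2 (median 0.02). Among cathepsins, Ctss (0.51 ± 0.14, edgeR adjusted p = 0.00756), Ctsd (0.37 ± 0.0913, adjusted p = 0.00263) and Ctsa (0.29 ± 0.0996, adjusted p = 0.0313) were higher in positive cells of experiment 1. In experiment 2 the cystatin genes Cst7 (-0.70 ± 0.16, edgeR adjusted p = 0.00151) and Cstb (-0.39 ± 0.111, adjusted p = 0.0123) were lower. The cathepsin list had 3 higher and 0 lower of 14, with a median of 0.22, and 0 higher and 2 lower of 11, with a median of 0.13. Of the CD72 list, 2 of 12 rose in experiment 1 (Grb2 and Inpp5d, median 0.19), and none of 6 was called in experiment 2 (median -0.07).

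From naive cells to 18 h, where 65.9% of all genes were called, the cathepsin list split, with 4 genes higher and 6 lower of 11 and a median of -0.72, against 0 over all genes. Ctss fell by 2.46 ± 0.149 (edgeR adjusted p = 2.79e-20) and Ctsd fell by 1.71 ± 0.143 (adjusted p = 5.01e-15), as Ctsw did, and Cst7, which inhibits cathepsins, rose by 2.61 ± 0.256 (adjusted p = 8.37e-13). In the BTB list 9 of 13 genes fell and 2 rose, with a median of -0.80. Zbtb20 fell by 4.27 ± 0.304 (edgeR adjusted p = 1.32e-17) and Zbtb7b, the CD4 lineage factor ThPOK, fell by 1.96 ± 0.166 (adjusted p = 6.81e-15), opposite in sign to Zbtb32. Hic1, with few counts in naive cells, rose as Zbtb32 did (edgeR adjusted p = 1.74e-09). In the growth factor list 3 of 6 rose and 1 fell, with a median of 1.78. Furin (1.68 ± 0.306, edgeR adjusted p = 4.41e-06) and Vegfb (0.98 ± 0.228, adjusted p = 0.000196) rose, and Tgfb1 fell by 1.01 ± 0.221 (adjusted p = 9.02e-05). In the CD72 list 2 of 6 rose and 3 fell, with a median of -0.26. The phosphatase genes Ptpn11 (0.70 ± 0.207, edgeR adjusted p = 0.00295) and Ptpn6 (0.42 ± 0.131, adjusted p = 0.00453) rose, and Inpp5d, which encodes the lipid phosphatase SHIP-1, fell by 0.75 ± 0.226 (adjusted p = 0.00312).

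Between mature and naive cells of experiment 1, where 16.4% of all genes were called, 4 of 12 genes of the CD72 list fell and none rose, with a median of -0.32 against 0.04 over all genes. They included the B-cell receptor gene Cd22 (-1.50 ± 0.274, edgeR adjusted p = 0.000216), Lyn (-1.30 ± 0.358, adjusted p = 0.0108) and Ptpn6 (-0.90 ± 0.184, adjusted p = 0.000882), beside the B-cell markers given above. In the growth factor list 1 of 9 rose (Nrp1, 1.17 ± 0.304, edgeR adjusted p = 0.00717) and 3 fell (median -0.49), among them Vegfa (-2.51 ± 0.409, edgeR adjusted p = 4.37e-05) and Lrp1 (-1.89 ± 0.414, adjusted p = 0.00155). In the BTB list (median 0.47) 2 of 15 rose, Gata3 (0.61 ± 0.184, edgeR adjusted p = 0.0195) and Zbtb1 (adjusted p = 0.0145), and 1 fell, Zbtb20 (-1.12 ± 0.225, adjusted p = 0.000673). The cathepsin list had 1 higher and 4 lower of 14, with a median of 0.03. Ctsb rose (0.58 ± 0.148, edgeR adjusted p = 0.00611), and the cystatin gene Cst3 fell by 0.91 ± 0.128 (adjusted p = 4.53e-06) and Ctsd fell by 0.56 ± 0.133 (adjusted p = 0.00343).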

How the data were processed

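RNA of mouse CD4 T cells was captured by its poly(A) tail, and primers with sample indexes and unique molecular identifiers gave 3′ end libraries, per the labels' protocols. Listed in the submitters' processing notes are the aligners STAR 2.5.2b and HISAT 0.1.5, the counter HTSeq 0.9.1, bcl2fastq 2.17.1.14 and FastQC 0.11.7, with mm9 as the genome. The notes give no role or order, and the gene models, strandedness, filters and handling of the identifiers are not stated in the sources used here. The deposited values are raw counts per gene symbol, 1 table per experiment. If reads were counted, amplification adds to the spread between libraries, and intervals or floors cover counting error only. Library pairs within a group differed by 1.32 to 16.5 times the counting variance per degree of freedom. Each library was treated as its own sample, although this spread cannot show whether libraries are repeat preparations of the same cells.

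Each table was fitted on its own in edgeR 4.0.16 (R 4.3.3) with TMM factors, filterByExpr (minimum count 10), 1 coefficient per group and the robust quasi-likelihood test. P-values were Benjamini-Hochberg adjusted over the 8961 and 9239 genes tested and called under 0.05. SE is the size of the log2 difference over the square root of F. Against groups at 0 a fold is a lower bound from a floor of 3 counts over the group. The script was tested on simulated data with 200 changed genes per experiment, and changed genes that failed the filter were left out. For mature against naive cells (8379 genes) it recovered 77.1% of 96 genes changed by 2 log2 units and 37.1% of 89 changed by 1. For CD62L at 48 h in experiment 2 (8819 genes) it recovered 88.7% of 97 and 51.6% of 93. Apart from these changes each simulated gene had the same mean in all groups, unlike the data.

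The 4 genes, the gene lists and the tests were chosen with earlier results of these data known. Named genes are the 4 members, the 5 genes most correlated with each over the 13 group means of experiment 2 (log2 CPM, prior count 2), and up to 3 genes per list with the smallest adjusted p. Reading the lists at the 2 concentrations, the overlapping genes and the motifs were chosen after seeing the data. Alternatives were RLE factors, DESeq2 1.42.0, no filter, the compared groups alone, a replicate block, the second title number as a term or held at 1, and leaving out each library. Replicate numbers were checked for pairing by correlating the deviations of same-numbered libraries from their group means over all pairs of groups. Of 45 such correlations in experiment 1 and 222 in experiment 2, 7 and 19 exceeded 0.1, the highest being 0.398 and 0.49. This check over all groups cannot show whether the CD62L sorts of a time were paired, and they were tested as unpaired. Promoter coordinates are from GRCm38.p6, not the build of the counts.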

Additional observations from a re-analysis of the deposited data

Results flagged for a closer look

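The CD62L difference of Zbtb32 in experiment 2 changed between 48 and 72 h by 2.33 ± 0.552 on the log2 scale (SE, edgeR adjusted p = 0.0131), a tested difference between times. The call was lost without 72 h positive library 1 (1.69, adjusted p = 0.328), and also without 48 h positive library 1 or 72 h negative library 2. At 48 h the positive libraries read 6.3 to 10 CPM and the negative libraries 48.3 to 66.1 CPM. At 72 h they read 2.9 to 8.2 and 4.9 to 8.1 CPM.

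Pdgfb lay on opposite sides of naive cells in the 2 experiments, and the difference between experiments was not tested because the tables were fitted apart. In experiment 1 every activated library (2.1 to 15.1 CPM) lay below every naive library (37.3 to 62.1 CPM), with a log2 difference of -2.69 ± 0.452 (edgeR adjusted p = 4.97e-06). In experiment 2 every sorted library lay above the naive libraries, which all had 0 counts. The naive cells of experiment 1 were bead-enriched and carried 180 to 450 CPM of red cell and platelet genes and 5310 to 10300 CPM of B-cell genes, and those of experiment 2 were sorted and carried 2.49 to 4.78 and 5.31 to 18.5 CPM. The part of these in the Pdgfb level was not tested.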

How the results depend on the processing

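Of 1162 alternative values for the 72 tests on the 4 genes, 1113 kept direction and call, 15 lost a call, 7 gained one, and 27 turned the sign of a value that had not passed. RLE factors moved the median of all genes by under 0.1 in every comparison. The cause of the changes below was not tested.

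With the second title number as a term, Cd72 was at -0.5955 from 18 to 30 h (no longer called), -0.1936 from 30 to 48 h (sign turned) and 0.8706 for CD62L at 48 h in experiment 2 (no longer called). Within number 1, the mean CD62L difference of Pdgfb in experiment 2 was -1.079 and no longer called, and 654 genes were called in place of 1345. Pdgfb from 48 to 72 h in sorted cells of experiment 2 gained a call with no filter on low counts (-0.7243), with that number as a term (-0.7379) and with the replicate block (-0.7289). The replicate block changed no other call among the 72 tests. Over all pairs of groups, deviations of same-numbered libraries had median correlations of -0.0121 in experiment 1 and 0.00193 in experiment 2. Against the 1 low library of the same number (chosen after seeing the data), the 48 h concentration difference was -3.58 for Ctsw and -1.977 for Cd72.

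Leaving out 1 library at a time gave these ranges. In experiment 1, mature against naive cells gave -2.108 to -1.055 for Pdgfb and 771 to 1447 called genes (1471 with all libraries; 771 without naive library 2 and 918 without naive library 3). Activated cells gave -1.605 to -0.5443 for Pdgfb against mature and -0.3725 to 0.1201 for Zbtb32 against naive. CD62L at 48 h gave -2.522 to -1.758 for Pdgfb, -0.1656 to 0.8396 for Ctsw and -0.6596 to 0.4323 for Cd72, and the mean of both times -0.1996 to 0.3466 for Cd72. The change of the CD62L difference gave -0.2597 to 0.7408 for Ctsw and -0.1713 to 0.9199 for Cd72, and 48 to 72 h gave -0.3555 to 0.08241 for Pdgfb. In experiment 2, 30 to 48 h gave -0.1175 to 0.3017 for Cd72. CD62L gave for Ctsw -1.241 to 0.3121 at 48 h, -0.2395 to 0.6969 at 72 h and -0.5511 to 0.2294 over both, for Cd72 1.119 to 1.696 at 48 h, and for Pdgfb -0.8586 to 0.1275 at 72 h. Pdgfb from 48 to 72 h in sorted cells ran from -1.011 to -0.5585. The change of the CD62L difference ran from -0.173 to 1.38 for Ctsw and from 1.685 to 2.612 for Zbtb32. For the concentrations the ranges were -5.438 to -4.564 (18 h) and -5.051 to -4.445 (30 h) for Ctsw, -4.423 to -3.623 (30 h) and -0.1468 to 0.3277 (72 h) for Cd72, -2.93 to -1.898 (72 h) for Zbtb32, and -2.706 to -2.102 (30 h) and -0.9686 to -0.3385 (72 h) for Pdgfb.

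Counts of called genes also moved by over 1.5 times in 5 tests. For the change of the CD62L difference in experiment 1 (169) they were 279 without the filter, 255 with DESeq2 and 79 to 256 without 1 library. For CD62L at 72 h in experiment 2 (141) they were 229 with DESeq2, 231 on the compared groups alone, 77 within number 1 and 50 to 119 without 1 library. For CD62L at 48 h they were 385 to 569 without 1 library in experiment 1 (583), and in experiment 2 (1341) 844 with the number as a term, 530 within number 1 and 818 to 1480 without 1 library. From 18 to 30 h (2270) the count was 1117 with the number as a term.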
